A study of Homo sapiens with 16 samples.

Results

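AP-1 is a family of dimeric transcription factors that bind DNA through a basic region followed by a leucine zipper (bZIP). FOS proteins (FOS, FOSB, FOSL1 and FOSL2) cannot pair with each other and act as dimers with a JUN protein (JUN, JUNB or JUND), whereas JUN proteins can also pair among themselves. ATF3 is a related bZIP protein, induced by stress, that dimerises with JUN proteins. Several of these genes are immediate-early genes: growth factor, cytokine and stress signals that reach MAP kinases switch their mRNAs on without new protein synthesis, and FOS mRNA is among the fastest to come and go. FOSL1, also named FRA-1, is a slower and more lasting member that is known in airway epithelium for its response to ERK signalling, injury and toxicants. The 8 genes named here were taken as the AP-1 subunits. They were matched by symbol in both deposited tables, which listed 18632 symbols at 3 h and 24570 symbols at 6 h, and each of the 8 matched 1 gene ID in each table.

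The cells were 16HBE, an established line of transformed human bronchial epithelial cells. They had been passaged 15 to 17 times and were kept in medium with 2% serum during the treatment. D. rotundifolia 3× is the third decimal dilution in water of an ethanolic extract of the whole sundew plant, and Ctrl is the ethanol vehicle diluted in the same way. The 16 RNA-seq libraries fell into 4 groups of 4: D. rotundifolia 3× for 3 h and its Ctrl, and D. rotundifolia 3× for 6 h and its Ctrl. The 3 h and 6 h cultures were separate experiments, so the time of exposure and the experiment cannot be told apart. All values are from 1 cell line in culture.

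Levels are given in TPM (abundance per transcript length, scaled to one total per library). Genes can be set side by side in TPM only as far as reads were assigned to the right transcripts, a limit given below for FOS. The tables hold no counts per library, so the depth of a single library is unknown. TPM summed to between 997870 and 999300 in every library, and between 12764 and 14239 symbols reached 1 TPM. All 6 epithelial markers (among them KRT8, KRT18, EPCAM and CDH1) averaged at least 1 TPM in every group, with sums of 9381 to 13350 TPM per library. The secretory markers SCGB1A1, MUC5AC, MUC5B and SCGB3A1 were not among the listed genes. Summed ciliated, endothelial, fibroblast and leukocyte markers stayed at or under 29.2 TPM per library, and the ranges of D. rotundifolia 3× and Ctrl overlapped for each of these lists at both times. In bulk RNA, fewer cells that express a gene and less RNA per cell cannot be told apart.

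At 6 h, FOSL1 and JUNB were higher in D. rotundifolia 3× cultures than in Ctrl, by 2.90-fold and 1.48-fold on the log2(TPM + 1) scale of the test, while JUN, FOS, FOSL2, JUND and ATF3 did not pass it. At 3 h, no subunit passed the test. The plot of TPM by library shows both patterns. At 3 h, for every subunit, the range within each group was wider than the difference between the D. rotundifolia 3× and Ctrl means. Same-numbered libraries counted as pairs at 3 h, so the range within a group is no measure of the differences within pairs.

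**Figure D1:**
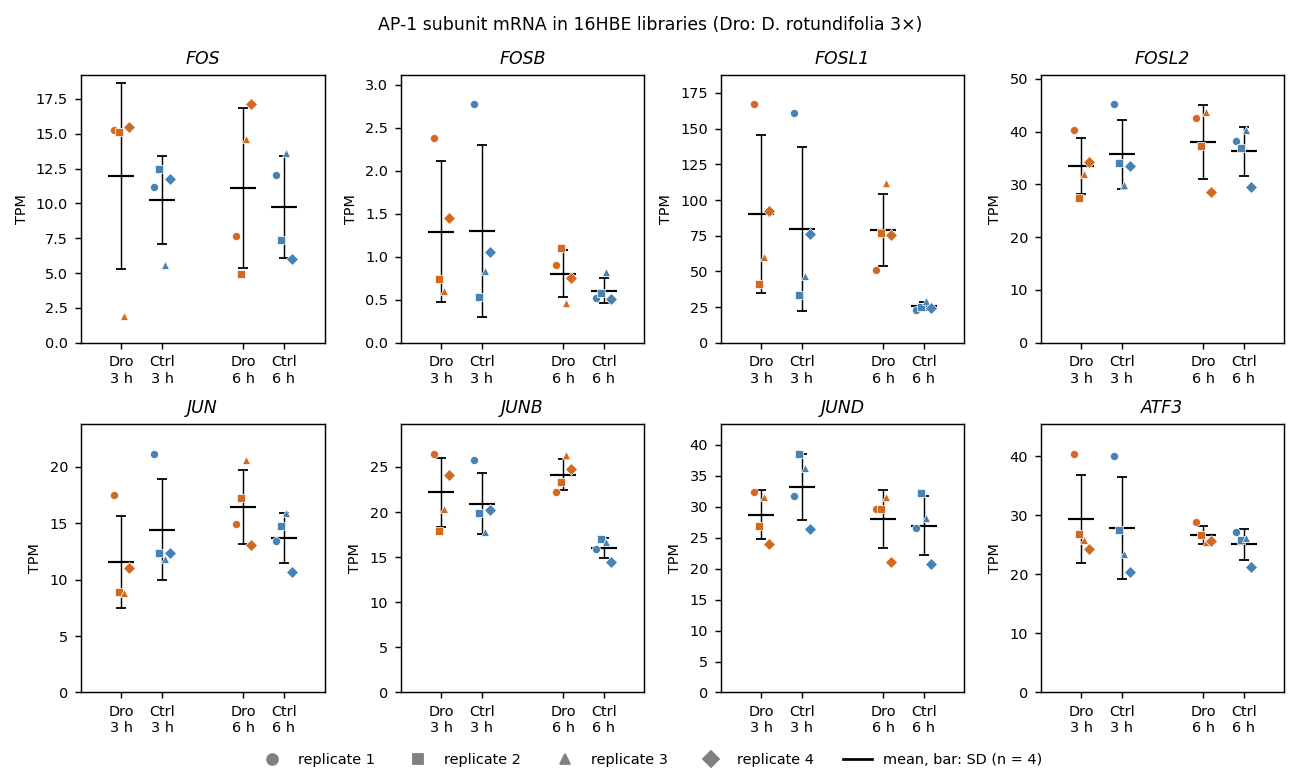
TPM (y axis, linear, from 0) of each AP-1 subunit in the 4 libraries of D. rotundifolia 3× (Dro, orange) and of Ctrl (blue) at 3 h and 6 h; symbols mark the replicate number, the line is the mean and the bar the SD. At 6 h every D. rotundifolia 3× library lies above every Ctrl library for FOSL1 and for JUNB, and at 3 h replicate 1 is the highest of its group for FOSL1 in both groups.

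FOSL1, the partner of JUN proteins that lacks the strong transactivation domain of FOS, had 50.8, 77.0, 112 and 75.6 TPM in D. rotundifolia 3× replicates 1 to 4 at 6 h, against 23.2, 25.1, 29.6 and 24.6 TPM in Ctrl replicates 1 to 4. The gene lies on chromosome 11 (GRCh38, GENCODE 44, 65892049 to 65900573, minus strand). All treated libraries were above all Ctrl libraries, the lowest treated library by 1.72-fold over the highest Ctrl library. The means were 78.8 ± 25.1 TPM with D. rotundifolia 3× and 25.6 ± 2.75 TPM with Ctrl (SD, n = 4 each). The treated libraries were thus spread more widely than the Ctrl libraries, and replicate 3 was the highest of both groups. The log2 change was 1.54 (standard error 0.21) on the log2(TPM + 1) scale, with an adjusted p of 0.0481 (limma). The call was near the threshold, since FOSL1 was the last of the 16 symbols called at 6 h when these are ordered by p. It was lost without Ctrl replicate 1, 2, 3 or 4 (adjusted p = 0.147, 0.168, 0.116 and 0.127 by limma), and without treated replicate 2, 3 or 4 (adjusted p = 0.169, 0.0605 and 0.191 by limma). Without treated replicate 1 it was kept (log2 change 1.73, adjusted p = 0.0120 by limma), and the log2 change stayed between 1.35 and 1.73 under all 21 alternatives.

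JUNB, a JUN protein that can restrain JUN-driven transcription of growth genes and activate others, had 22.3, 23.3, 26.3 and 24.7 TPM in D. rotundifolia 3× replicates 1 to 4 at 6 h, against 15.9, 17.0, 16.7 and 14.5 TPM in Ctrl replicates 1 to 4. The gene has 1 annotated transcript on chromosome 19 (GRCh38, GENCODE 44, 12791486 to 12793315, plus strand). The groups did not overlap, and the lowest treated library was 1.31 times the highest Ctrl library. Means were 24.2 ± 1.75 TPM with D. rotundifolia 3× and 16.0 ± 1.11 TPM with Ctrl (SD, n = 4 each), a log2 change of 0.57 (standard error 0.076) with an adjusted p of 0.0481 (limma). JUNB thus changed less than FOSL1 but with a smaller spread between libraries. Its call was lost without Ctrl replicate 1, 2, 3 or 4 (adjusted p = 0.139, 0.111, 0.124 and 0.0982 by limma), and without treated replicate 2, 3 or 4 (adjusted p = 0.158, 0.136 and 0.191 by limma). Without treated replicate 1 it was kept (adjusted p = 0.0372 by limma), and the log2 change stayed between 0.47 and 0.61 under all 21 alternatives.

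The 2 subunits called at 6 h were 2 of 7 tested, beside 0.113% of the 14179 symbols tested, and every one of the 16 symbols called was higher with D. rotundifolia 3× and beyond 0.4 on the log2 scale. Every treated library was above every Ctrl library for these same 2 subunits, FOSL1 and JUNB, beside 3.43% of the symbols tested, and the opposite order was found for 0 subunits, beside 1.65%. FOSB was not tested at 6 h because its mean was under 1 TPM, the minimum for a test. The number of subunits called depended on the settings. For example, it was 2 with a minimum of 5 TPM, and 1 with a pseudocount of 0.1 or with gene IDs in place of symbols. With the replicate number as a block it was 1, FOSL1 and not JUNB. It was 0 with a pseudocount of 5, with no minimum, with median-ratio rescaling, with no variance trend or with all 16 libraries in 1 fit.

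The promoter of JUNB is printed here beside those of JUN, the next subunit described, and FOS, the best known of the immediate-early genes, because the 3 differ in the motifs that lie close to the start of transcription. Each sequence is the 250 bases before the RefSeq start on GRCh38.p14, 5′ to 3′ on the strand of the gene, with matches to TGACG, TGACATCA and TATAAA in capitals. TGACG is the core of the cyclic AMP response element (CRE), at which CREB and ATF factors bind, TGACATCA is the site in the JUN promoter at which JUN and ATF2 bind, and TATAAA is the TATA box.
JUNB, chr19:12791236-12791485, plus strand: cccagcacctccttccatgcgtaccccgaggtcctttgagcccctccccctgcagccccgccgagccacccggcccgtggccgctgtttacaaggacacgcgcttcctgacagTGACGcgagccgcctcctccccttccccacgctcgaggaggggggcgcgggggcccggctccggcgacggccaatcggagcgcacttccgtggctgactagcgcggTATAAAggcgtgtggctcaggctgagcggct
JUN, chr1:58784048-58784297, minus strand: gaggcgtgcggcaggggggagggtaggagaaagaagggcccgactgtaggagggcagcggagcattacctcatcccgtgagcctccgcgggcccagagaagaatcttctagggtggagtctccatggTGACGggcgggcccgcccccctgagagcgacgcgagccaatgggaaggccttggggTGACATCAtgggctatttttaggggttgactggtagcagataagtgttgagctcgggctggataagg
FOS, chr14:75278578-75278827, plus strand: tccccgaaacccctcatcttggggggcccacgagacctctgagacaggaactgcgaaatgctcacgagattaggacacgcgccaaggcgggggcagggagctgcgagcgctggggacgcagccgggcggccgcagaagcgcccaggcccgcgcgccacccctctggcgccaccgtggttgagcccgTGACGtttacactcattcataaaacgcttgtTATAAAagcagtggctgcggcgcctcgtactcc

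JUNB held the TATA box 31 bases and the CRE core 137 bases before the start, and FOS held them 33 and 64 bases before it (each counted to the first base of the match). JUN held its own JUN and ATF2 site at 67 bases and the CRE core at 123 bases, with no TATA box in this window. Of 27305 promoters of the same length, 11.1% held the TATA box, 21.7% the CRE core and 2.45% the JUN and ATF2 site, on either strand. The other members in the RefSeq table were FOSB, with a TATA box at 30 and the CRE core at 60 bases, FOSL2, with the CRE core at 66 and 201 bases, ATF3, with the JUN and ATF2 site at 123 bases, and JUND. JUND was the only one of the 7 with the full CRE, TGACGTCA, which contains the core on both strands. This full CRE lay 200 bases before the start, and 1.77% of the promoters held it. A separate CRE core lay in JUND at 86 bases. TGANTCA, the AP-1 site itself, lay in 0 of these 7 windows and in 6.60% of all promoters. GCGTG, the core of the site bound by the aryl hydrocarbon receptor, lay in JUNB 24, 110 and 154 bases before the start, in FOS at 175 and in JUN at 247, and in 31.9% of all promoters. Each window belongs to a single RefSeq start, and other starts of these genes were not examined. The ATF3 window lies at the upstream end of a gene with 10 annotated transcripts (212565334 to 212620777). FOSL2 has 4 annotated transcripts, and its window (28392608 to 28392857) lies inside the annotated gene, which begins at 28392448. A match is a description of the letters in these windows, and the data hold no measurement of binding.

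JUN, the strongest transactivator of the JUN proteins, was lower in each same-numbered pair at 3 h and higher in each at 6 h. At 3 h it had 17.5, 8.89, 8.79 and 11.0 TPM in D. rotundifolia 3× replicates 1 to 4, against 21.1, 12.4, 11.8 and 12.4 TPM in Ctrl replicates 1 to 4. Every treated library was below the Ctrl library of its number, by 10.9% to 28.1% (pair changes of -28.1% to -10.9%), but the groups overlapped because replicate 1 was high in both. At 6 h JUN had 14.9, 17.2, 20.5 and 13.04 TPM in D. rotundifolia 3× replicates 1 to 4, against 13.4, 14.7, 15.9 and 10.7 TPM in Ctrl replicates 1 to 4. Every treated library was above the Ctrl library of its number, by 11.2% to 29.4%, and the groups overlapped again. At 6 h, however, the numbers did not qualify as pairs, and the share of all symbols with this order was not counted. FOSL1 and JUNB were also higher in all 4 same-numbered libraries at 6 h. The log2 change was -0.31 (standard error 0.24, adjusted p = 1.00 by limma) at 3 h and 0.24 (standard error 0.16, adjusted p = 0.742 by limma) at 6 h, and neither passed the threshold. These fits held no replicate block. With the block at 3 h the standard error of JUN was 0.066, and JUN was still not called (adjusted p = 0.577 by limma). The study's own DESeq2 comparison, not used here, listed JUN as significantly lower at the earlier time. RT-qPCR in the same study, at that time, found JUN lower in the mean but not significantly so.

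Of the 8 subunits, 1 (JUN) was lower in all 4 same-numbered pairs at 3 h, beside 5.95% of the 12919 symbols tested, and 1 (FOSL1) was higher in all 4, beside 9.57%. From the residuals of all symbols, the replicate numbers counted as pairs at 3 h but not at 6 h. At 3 h the subunits called numbered 0 of 8, beside 0% of the symbols tested, and 311 symbols had an unadjusted p under 0.05 (limma), with 0 subunits among them. With the replicate number as a block, 0 subunits were called as well, with adjusted p of 0.577 for JUN and 0.619 for FOSL1 (limma), the 2 subunits with an unadjusted p under 0.05 in that fit. No subunit had all treated libraries above all Ctrl libraries at 3 h, beside 1.02% of the symbols tested, or all below, beside 0.503%.

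FOSL1 at 3 h had 167, 41.1, 59.9 and 92.3 TPM in D. rotundifolia 3× replicates 1 to 4, against 161, 33.6, 47.0 and 76.4 TPM in Ctrl replicates 1 to 4. The libraries of the same number lay close together and the 4 numbers far apart, with replicate 1 highest and replicate 2 lowest in both groups. The excess of the treated library over the Ctrl library of its number was 3.60% to 27.4%, against an excess of 119% to 278% over the 4 numbers at 6 h. The log2 change was 0.24, with a standard error of 0.54 without the replicate block (adjusted p = 1.00 by limma) and of 0.057 with it (adjusted p = 0.619 by limma). Without the block, where leaving out 1 library unbalances the replicates, it turned to -0.12 without treated replicate 1 and to -0.09 without Ctrl replicate 2. With whole pairs left out it stayed between 0.20 and 0.30.

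Replicate 1 was the highest library of both groups at 3 h for 6 of the 8 subunits (75%), beside 15.5% of the symbols tested; the subunits were FOSB, FOSL1, FOSL2, JUN, JUNB and ATF3. Without the pair of replicate 1, the log2 changes were -0.32 for JUN, 0.09 for JUNB and 0.11 for ATF3, close to those with it. What set replicate 1 apart was not tested. At 6 h, replicate 3 was the highest of both groups for 3 of the 8 subunits (37.5%), beside 11.0% of the symbols tested.

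**Figure D2:**
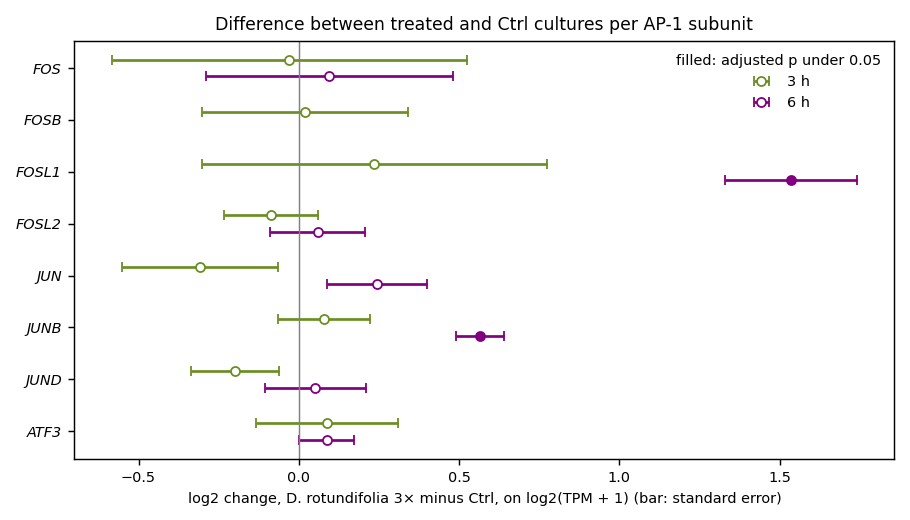
Log2 change of each AP-1 subunit between D. rotundifolia 3× and Ctrl (x axis, on log2(TPM + 1)), at 3 h (green) and 6 h (purple), with the standard error as bar and filled points where the adjusted p was under 0.05. FOSL1 (1.54) and JUNB (0.57) at 6 h are filled. All bars are from the fits without the replicate block, in which the standard errors of FOS and FOSL1 at 3 h exceed 0.5. FOSB was not tested at 6 h.

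Whether the response differed between times was tested as an interaction over all 16 libraries, the log2 change at 6 h minus that at 3 h. It was 1.30 for FOSL1 (standard error 0.62, unadjusted p = 0.0531 by limma), 0.55 for JUN (standard error 0.31, unadjusted p = 0.0920 by limma) and 0.49 for JUNB (standard error 0.17, unadjusted p = 0.0108 by limma). Each had an adjusted p of 0.999 (limma), and 0 of 8 subunits were called, beside 0.00792% of the 12623 symbols tested, which is CYP1B1 alone; 441 symbols had an unadjusted p under 0.05. With the replicate number as a block at both times, FOSL1 was called (adjusted p = 0.0272 by limma), while JUN (0.0527) and JUNB (0.150) were not. With the block at 3 h only, where the numbers qualified as pairs, FOSL1 was not called (adjusted p = 0.253 by limma); this fit was chosen after the data had been seen.

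FOS, the founding member, varied most of the 8 between libraries of a group at 6 h, with a coefficient of variation of 51.7% with D. rotundifolia 3× and 37.4% with Ctrl. At 3 h it had 15.3, 15.1, 1.93 and 15.5 TPM in D. rotundifolia 3× replicates 1 to 4, against 11.1, 12.5, 5.58 and 11.7 TPM in Ctrl replicates 1 to 4. Replicate 3 was the lowest of both groups, and in the other 3 pairs the treated library was the higher one. The log2 change was -0.03 (standard error 0.55, adjusted p = 1.00 by limma), and 0.35 (standard error 0.087) without both libraries of replicate 3, still not called (adjusted p = 1.00 by limma). At 6 h FOS had 7.67, 4.93, 14.6 and 17.1 TPM in D. rotundifolia 3× replicates 1 to 4, against 12.0, 7.37, 13.6 and 6.01 TPM in Ctrl replicates 1 to 4. The groups overlapped, with 2 pairs higher and 2 lower, and the log2 change was 0.10 (standard error 0.38, adjusted p = 0.968 by limma).

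The FOS values rested on few reads for their TPM. The authors' mean normalized count of FOS was 200 at 3 h and 173 at 6 h, or 18.0 and 16.6 counts for each TPM, whereas JUNB, whose single transcript of 1830 bases is shorter than the longest FOS transcript of 2104 bases, gave 75.9 and 71.2 counts for each TPM. GENCODE 44 lists 10 transcripts of FOS, of 249 to 2104 bases, and how the reads were divided among them was not tested. By the same measure FOSL1 gave 60.6 and 59.6, and JUN 154 and 131 counts for each TPM. FOSB, a FOS relative with a short splice form that accumulates under repeated stimulation, was the lowest subunit in every group. It lay between 0.535 and 2.77 TPM at 3 h and between 0.459 and 1.10 TPM at 6 h, with overlapping groups at both times, and its authors' mean normalized count was 149 at 3 h and 75.3 at 6 h.

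FOSL2, which like FOSL1 lacks the strong transactivation domain of FOS, had 42.5, 37.3, 43.7 and 28.5 TPM in D. rotundifolia 3× replicates 1 to 4 at 6 h, against 38.1, 37.0, 40.3 and 29.5 TPM in Ctrl replicates 1 to 4. The groups lay on top of each other, with replicate 4 the lowest in both, and the log2 change was 0.06 (standard error 0.15, adjusted p = 0.941 by limma). JUND, the JUN protein present in resting cells, had 29.6, 29.6, 31.6 and 21.1 TPM in D. rotundifolia 3× replicates 1 to 4 at 6 h, against 26.6, 32.2, 28.2 and 20.8 TPM in Ctrl replicates 1 to 4. The groups overlapped, again with replicate 4 the lowest in both. The log2 change of JUND was 0.05 (standard error 0.16) at 6 h and -0.20 (standard error 0.14) at 3 h. ATF3 averaged 26.6 ± 1.56 TPM with D. rotundifolia 3× and 25.1 ± 2.64 TPM with Ctrl at 6 h (SD, n = 4 each), a log2 change of 0.09 (standard error 0.086). Its values at 3 h were 40.4, 26.9, 25.8 and 24.3 TPM in D. rotundifolia 3× replicates 1 to 4, against 40.1, 27.4, 23.5 and 20.3 TPM in Ctrl replicates 1 to 4. Replicate 1 stood highest in both groups, and the log2 change was 0.09 (standard error 0.22).

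Ordered by mean TPM, FOSL1 was the most abundant subunit with D. rotundifolia 3× at 3 h (90.1 TPM) and 6 h (78.8 TPM), and with Ctrl at 3 h (79.6 TPM). With Ctrl at 3 h FOSL1 overlapped with FOSL2, the next in order (35.7 TPM), and was above it in 3 of 4 libraries. In the Ctrl cultures of 6 h it came after FOSL2 (36.2 TPM) and JUND (27.0 TPM), at 25.6 TPM, and it overlapped with JUND and ATF3 there. In the treated cultures at 6 h its 4 libraries did not overlap with those of FOSL2, the next in order (38.0 TPM). FOSL2, JUND, ATF3 and JUNB followed each other with overlapping neighbours at 6 h with D. rotundifolia 3×, and JUNB did not overlap with JUN below it. With Ctrl at 6 h, ATF3 did not overlap with JUNB below it, while JUNB overlapped with JUN and JUN with FOS. FOSB was last in all 4 groups and overlapped with its neighbour in the order in none of them. The FOS library at 1.93 TPM lay under the highest FOSB library of the same group (2.39 TPM). FOS had the fewest counts for each TPM of all subunits. Its place in this order, and the sums and shares of the FOS family, thus depend on how its reads were divided among transcripts, which was not tested.

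The summed TPM of the 4 FOS family genes was 129 ± 29.4 with D. rotundifolia 3× and 72.2 ± 9.81 with Ctrl at 6 h (SD, n = 4 each), with no overlap between the groups. FOSL1 made up 49.8% to 65.5% of this sum with D. rotundifolia 3× and 31.4% to 40.5% with Ctrl, whereas FOSL2 made up 23.4% to 41.7% with D. rotundifolia 3× and 47.8% to 52.8% with Ctrl. FOSL1 was thus the main FOS family mRNA in every treated library, and FOSL2 in every Ctrl library of 6 h. At 3 h the sum was 137 ± 64.2 TPM with D. rotundifolia 3× and 127 ± 65.2 TPM with Ctrl, and the share of FOSL1 was 48.8% to 74.2% with D. rotundifolia 3× and 41.6% to 73.2% with Ctrl. The JUN family summed to 68.6 ± 8.12 TPM with D. rotundifolia 3× and 56.6 ± 7.85 TPM with Ctrl at 6 h, with overlapping groups. Within it, JUNB held 33.3% to 42.1% with D. rotundifolia 3× and 26.5% to 31.5% with Ctrl, and JUND held 35.8% to 44.4% with D. rotundifolia 3× and 45.3% to 50.4% with Ctrl. The share of JUN was 22.2% to 26.2% with D. rotundifolia 3× and 23.0% to 26.1% with Ctrl. These sums and shares are descriptions without a test.

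**Figure D3:**
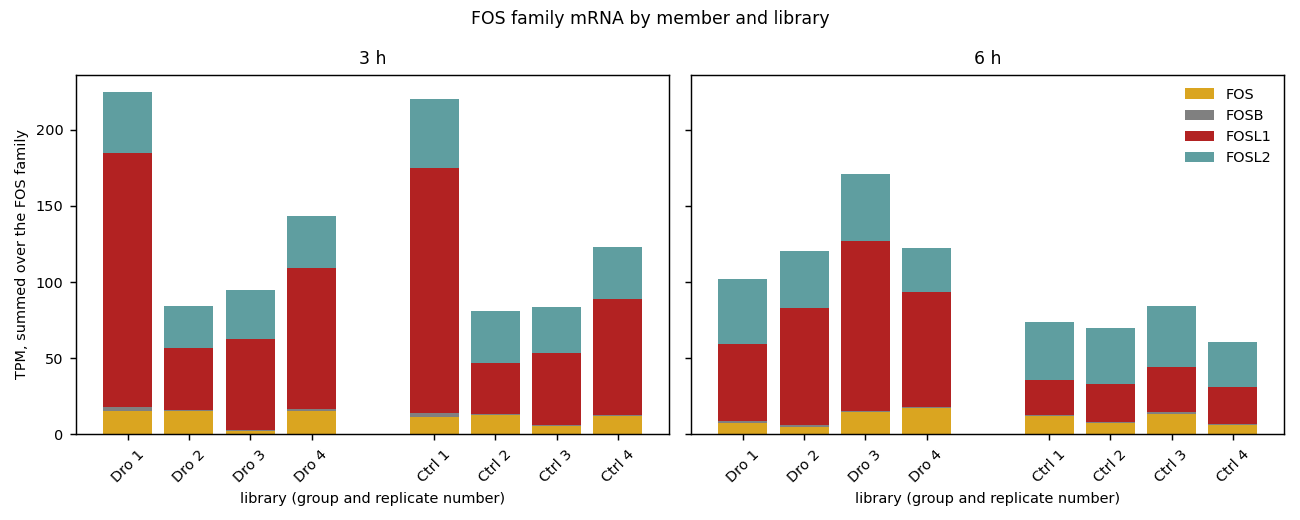
Summed TPM (y axis, linear, from 0) of FOS, FOSB, FOSL1 and FOSL2 in each library, with D. rotundifolia 3× (Dro) left of Ctrl, at 3 h and 6 h. At 6 h the bars of D. rotundifolia 3× reach 102 to 171 TPM and those of Ctrl 60.6 to 84.3 TPM, and the difference lies in the FOSL1 segment; at 3 h replicate 1 reaches 225 TPM with D. rotundifolia 3× and 220 TPM with Ctrl.

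Genes that feed into AP-1, other bZIP factors and AP-1 target genes were counted in the fits without the replicate block, with no test of the lists. Same-numbered libraries counted as pairs at 3 h, but the list counts were not made with the block. Over all symbols tested, 2.41% at 3 h (311 symbols) and 8.03% at 6 h (1139 symbols) had an unadjusted p under 0.05 (limma), and 3.43% had all treated libraries above all Ctrl libraries at 6 h. No list gene was called at either time, so the list genes named here, the AP-1 target genes included, were chosen after their values were seen. Of 35 MAP kinase pathway and promoter factor genes upstream of FOS and JUN, 33 were tested at each time and 0 were called (limma), with an unadjusted p under 0.05 for 1 at 3 h and 4 at 6 h. Of the 4 at 6 h, MAP2K3, SRF and MEF2D (log2 change 0.22) were higher and MRTFB (log2 change -0.36) was lower, with overlapping groups for MEF2D and MRTFB. The median log2 change of the 33 at 6 h was 0.04, beside 0.0052 over all symbols tested. All treated libraries were above all Ctrl libraries at 6 h for 2 of the 33, beside the 3.43%: MAP2K3, a kinase of p38 (51.1 ± 6.81 TPM with D. rotundifolia 3× and 38.4 ± 0.776 TPM with Ctrl), and SRF, which binds the serum response element of the FOS gene (17.2 ± 1.07 TPM with D. rotundifolia 3× and 13.7 ± 1.15 TPM with Ctrl, SD, n = 4 each). The 14 regulators of AP-1 mRNA and protein turnover were all tested, and 0 were called at either time (limma), with an unadjusted p under 0.05 for 0 at 3 h and 3 at 6 h. The 3 of 14, beside the 8.03% of all symbols, were the tristetraprolin family, which binds AU-rich elements and speeds the decay of immediate-early mRNAs. ZFP36L1 had a log2 change of 0.62 (adjusted p = 0.0532 by limma), ZFP36L2 of 0.33 (adjusted p = 0.352 by limma) and ZFP36 of 0.32 (adjusted p = 0.445 by limma), each with all treated libraries above all Ctrl libraries, beside the 3.43%. The median of the 14 was 0.05 on the log2 scale.

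Of 42 other bZIP factors, which share the zipper fold and in part the partners of AP-1, 37 were tested, and 0 were called at either time (limma), with an unadjusted p under 0.05 for 2 at 3 h and 10 at 6 h, beside 2.41% and 8.03% of all symbols. Of the 10 at 6 h, ATF5, CEBPB, MAFF, MAFG and NFE2L2 were higher, and ATF2, ATF6, CREBRF, NFE2L3 and CEBPA were lower. The median log2 change of the 37 at 6 h was 0.02, with 21 higher and 16 lower in the mean. At 6 h, 3 of the 37 had all treated libraries above all Ctrl libraries, beside 3.43% of all symbols, and 1 had all below, beside 1.65%. The 3 were the small MAF proteins MAFF (34.5 ± 3.13 TPM with D. rotundifolia 3× and 25.2 ± 1.40 TPM with Ctrl) and MAFG (12.7 ± 0.925 TPM with D. rotundifolia 3× and 9.27 ± 1.01 TPM with Ctrl), and their partner NFE2L2, the NRF2 factor of the antioxidant response (57.5 ± 1.10 TPM with D. rotundifolia 3× and 43.2 ± 3.30 TPM with Ctrl, adjusted p = 0.0746 by limma). ATF6, a sensor of endoplasmic reticulum stress, had all treated libraries below all Ctrl libraries (14.7 ± 0.835 TPM with D. rotundifolia 3× and 16.8 ± 1.03 TPM with Ctrl, SD, n = 4 each).

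The AP-1 target genes held 33 genes with known AP-1 sites or known dependence on AP-1 in epithelial or immune cells, of which 26 were tested at each time. At 6 h, 0 were called (limma), 14 had an unadjusted p under 0.05 (beside 8.03% of all symbols), the mean was higher for 23 and lower for 3, and the median log2 change was 0.45. At 3 h, 0 were called (limma), 0 had an unadjusted p under 0.05, 17 had a higher and 9 a lower mean, and the median was 0.03, beside 0.01 over all symbols tested. These fits held no replicate block, although same-numbered libraries counted as pairs at 3 h. They thus do not show that the target genes were unchanged then. For SERPINB2 at 3 h the log2 change was 0.57, with a standard error of 0.65. The study's own DESeq2 comparison, not used here, listed SERPINB2 and IL6 as significantly higher at 3 h. At 6 h the groups did not overlap for 11 of the 26, all with the treated libraries above (beside the 3.43% of all symbols tested): PLAU, PLAUR, SERPINB2, CCND1, VEGFA, HBEGF, IL6, IL11, LIF, CSF2 and PTGS2. SERPINB2, an inhibitor of the urokinase that PLAU encodes, averaged 38.0 ± 13.8 TPM with D. rotundifolia 3× and 9.15 ± 2.02 TPM with Ctrl (log2 change 1.89, adjusted p = 0.0558 by limma). HBEGF, an EGFR ligand, averaged 16.0 ± 4.71 TPM with D. rotundifolia 3× and 5.96 ± 0.949 TPM with Ctrl (log2 change 1.25, adjusted p = 0.111 by limma). LIF, a cytokine of the IL-6 family, averaged 49.1 ± 9.96 TPM with D. rotundifolia 3× and 25.4 ± 5.06 TPM with Ctrl (log2 change 0.92, adjusted p = 0.165 by limma). The genes of the cornified envelope IVL and SPRR1A, and TNC and MMP9, of the extracellular matrix and its breakdown, had overlapping groups at 6 h.

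**Figure D4:**
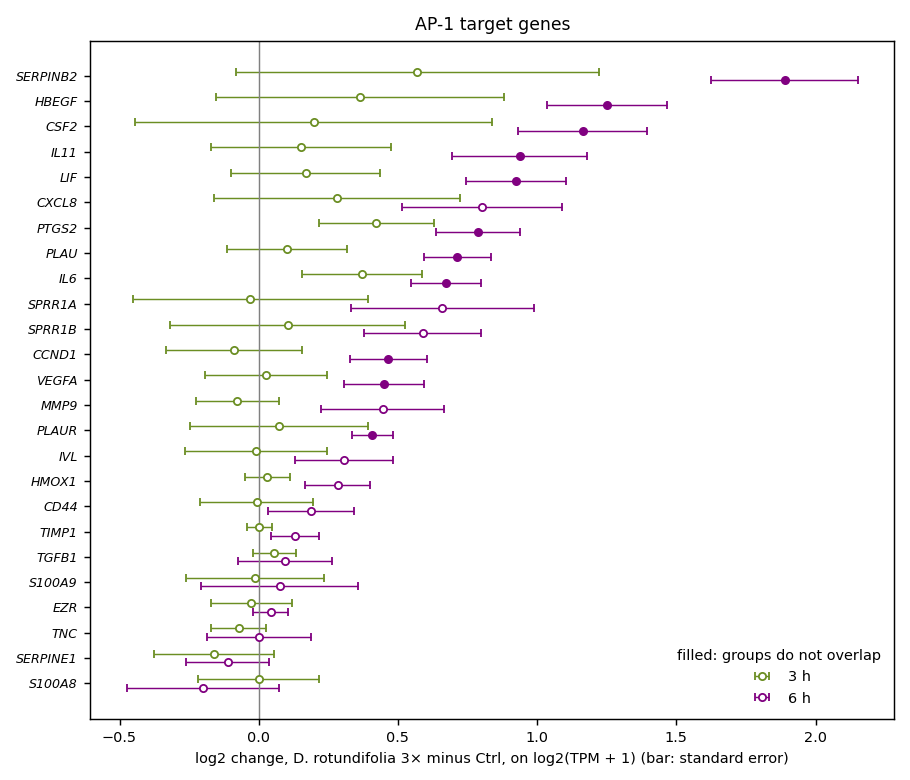
Log2 change between D. rotundifolia 3× and Ctrl (x axis, on log2(TPM + 1)) of the tested AP-1 target genes, all but 1 of the 26, at 3 h (green) and 6 h (purple), ordered by the change at 6 h, with the standard error as bar and filled points where the groups do not overlap. At 6 h 11 points are filled, from PLAUR (0.41) to SERPINB2 (1.89), and at 3 h 0 are. In these fits, which held no replicate block, 0 of the 26 passed the threshold at either time.

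The symbols whose libraries were ordered most like those of each subunit were sought among 9613 symbols with a mean of at least 5 TPM at both times, over the 56 pairs of libraries within a time. For FOSL1, DUSP4, a phosphatase of MAP kinases, and SLC20A1, a phosphate transporter, ordered all 56 pairs in the same way, beside a median of 28 over the symbols. DUSP4 averaged 11.7 TPM with D. rotundifolia 3× and 6.28 TPM with Ctrl at 6 h, and SLC20A1 averaged 72.7 TPM with D. rotundifolia 3× and 43.1 TPM with Ctrl. For JUNB, CDKN1A, the cell cycle inhibitor p21, matched 53 pairs and AQP3, an aquaporin, matched 52. For JUN these were BID, a pro-apoptotic BCL2 relative (52 pairs), and BNC1, a zinc finger protein of basal epithelium (50 pairs). FOSB was left out because it was not tested at 6 h, where its mean was under 1 TPM. The closest symbols matched 51 pairs for ATF3 (SLC25A6) and FOSL2 (FAM207A and TSR3), 49 for JUND (MRPL34) and 47 for FOS (CYLD and PPP1R11). Pairs within a group enter this measure together with those between groups, and the libraries are shared by all genes, so the counts carry no test.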

How the data were processed

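Single-end RNA-seq of 16HBE cells was quantified by the authors with Salmon 0.13.1 against GRCh38.p13 transcripts and tested with DESeq2 1.22.2 in R 3.5.3 (submitters' processing notes and methods). Each of 2 deposited tables, 1 per time, gives TPM per gene and library. The authors' mean normalized count is a signal per gene; their log2 fold change with its error, Wald score and p-value columns, raw and adjusted, hold the authors' own comparison and were not used. The tables used here give TPM only per library, so count models and counting intervals were left out. TPM was summed over the IDs of a symbol, after 89 repeated rows at 6 h were dropped.

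Symbols whose mean reached 1 TPM or more were tested on log2(TPM + 1) with limma 3.58.1 in R 4.3.3 (trended variance, two-sided, Benjamini-Hochberg over all symbols, threshold 0.05), each time alone and, for the difference between times, with an interaction over all 16 libraries. The fits were tested on simulated data. Libraries of the same number counted as pairs where all 4 residual correlations exceeded 0.1, which was met at 3 h (0.187 to 0.469). Alternatives changed the pseudocount, filter, scaling, block, variance trend and libraries. The named genes are the 8 subunits, called members of the lists and the 2 symbols most like each subunit; no list member was called, so the list genes named were chosen after their values were seen. The members and lists were chosen with earlier results of these data known. Replicates are separate cultures per the study. Promoters are from RefSeq, at a single start per subunit (7 of 8 subunits matched, FOSL1 did not). Coordinates are 1-based. The values of 1 AP-1 target gene are not reported here; it is included in the counts. Figures used matplotlib 3.10.9 in Python 3.11.15.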

Additional observations from a re-analysis of the deposited data

Results flagged for a closer look

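Of 32 groups of 4 libraries (8 subunits in 4 groups), 3 had a library that stood apart from the others by its gap over the range of the group. Chance gives about 1 in 20 for a single group. The 8 subunits share the same libraries, so the 32 groups are not independent and 3 of 32 cannot be judged against that rate. FOS in D. rotundifolia 3× at 3 h had its lowest library at 1.93 TPM, with the gap taking 0.971 of the range. ATF3 in D. rotundifolia 3× at 3 h had its highest library at 40.4 TPM (0.837 of the range). JUN in Ctrl at 3 h had its highest library at 21.1 TPM (0.940 of the range). The FOS library was replicate 3, and the others were replicate 1, which was also the highest for JUN in D. rotundifolia 3× and for ATF3 in Ctrl.

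JUN moved down in every same-numbered pair at 3 h and up in every one at 6 h, a difference of 0.55 on the log2 scale. The test of this difference did not pass the threshold (adjusted p = 0.999 by limma, and 0.0527 with the replicate number as a block), and at 6 h the numbers did not qualify as pairs.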

How the results depend on the processing

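Depth per library is unknown, groups hold 4 libraries, and the 6 h calls lie near the threshold. At 6 h, residual correlations of same-numbered libraries were 0.0564, 0.0973, 0.158 and 0.204, and replicate 2 correlated slightly better with another library (0.101). All were positive but not all exceeded the bound of 0.1, so the numbers were not taken as pairs. This does not show that the libraries were unpaired, and per the study Ctrl cultures ran in parallel in the same plates. With the replicate block at 6 h, 40 symbols in place of 16 and 1 subunit in place of 2 were called: FOSL1 (adjusted p = 0.0388 by limma), not JUNB (0.0833). With no filter, 7 symbols and 0 subunits were called. Subunits called at 6 h numbered 1 with a pseudocount of 0.1 or by gene ID, and 0 with a pseudocount of 5, rescaling, no variance trend or all 16 libraries in 1 fit. Without single libraries or pairs, 3 to 47 symbols and 0 to 2 subunits were called. At 3 h, 0 symbols were called, but 1 with the block (888 with an unadjusted p under 0.05), 1 by gene ID, 2 with all 16 libraries in 1 fit and 0 to 2 without single libraries or pairs; subunits stayed at 0. Between times, 1 symbol was called, but 32 with the block (1 subunit), 2 by gene ID and 1 to 2 without single libraries. The cause of these shifts was not tested.

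The directions of FOSL1 and JUNB at 6 h and of JUN at both times held in all 21 alternatives. Uncalled changes turned: FOS at 3 h to 0.052 with a pseudocount of 5, and ATF3 between times to 0.0014 with rescaling. Without single libraries or pairs, log2 changes at 3 h ranged from -0.27 to 0.59 for FOS, -0.19 to 0.29 for FOSB, -0.12 to 0.66 for FOSL1, -0.18 to 0.029 for FOSL2, -0.0074 to 0.18 for JUNB and -0.070 to 0.27 for ATF3. Leaving out 1 library at 3 h unbalances the replicates, which counted as pairs there. With whole pairs left out, FOSL1 (0.20 to 0.30), FOSL2, JUNB and ATF3 kept their direction at 3 h, and FOS and FOSB did not. At 6 h the log2 changes without single libraries or pairs ranged from -0.33 to 0.39 for FOS, -0.034 to 0.19 for FOSL2 and -0.063 to 0.18 for JUND. Between times they ranged from -0.49 to 0.42 for FOS, -0.012 to 0.30 for FOSB and -0.19 to 0.16 for ATF3.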
